A study of Homo sapiens with 4 samples.

Results

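Purinergic receptors are membrane proteins that sense ATP, ADP, UTP and related nucleotides outside the cell. The 10 genes described here are P2RX1, P2RX4, P2RX7, P2RY1, P2RY2, P2RY8, P2RY11, P2RY13, P2RY14 and PPAN-P2RY11, a transcript that runs from the PPAN gene through P2RY11, out of 60662 genes in the table. They were found by symbol and were chosen with the difference between the JMJD3 and vector libraries already known, so they are selected on the same comparison that is described below, and their values are given as a description. No p-value is given for them, and where calls of the fit across all genes are counted or named for them, nothing is read from those calls.

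The study examined JMJD3, a histone H3 lysine 27 demethylase encoded by KDM6B, in acute myeloid leukaemia, and the comparison asks which RNAs differ when it is expressed. RNA was sequenced from NB4, a human acute promyelocytic leukaemia line that carries the PML-RARA fusion. The groups were NB4 transduced with a control vector (n = 2 libraries) and NB4 transduced with a JMJD3-expression vector (n = 2 libraries), with no other treatment stated. The labels give DMEM with 10% FBS as the medium of both groups, and the study's methods name a different medium. The study's methods describe lentiviral pLVX vectors that also carry a fluorescent protein, with sorting of fluorescent cells, for leukaemia lines in general, and the labels do not state these steps for NB4. The vector adds JMJD3 RNA to a line that has its own KDM6B gene, and no catalytically inactive JMJD3 is among the groups. The labels do not say if replicates were transduced or cultured separately, so every p-value below measures only the spread between libraries, which may be technical. The label of vector replicate 1 names sequencing lane 20, and those of the other 3 libraries name lane 17.

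The counts summed to 39078443 and 40768225 in vector replicates 1 and 2, and to 35176388 and 34704909 in JMJD3 replicates 1 and 2. Values below are counts relative to the library size after scaling by the trimmed mean of M values (CPM), or fragments per kilobase of transcript scaled to library size (FPKM), which is used to set the levels of receptor and pathway genes side by side. Across genes, the correlation of log2 values was 0.994 within the vector group and 0.998 within the JMJD3 group, and it lay between 0.976 and 0.983 for pairs from different groups. These correlations are across genes, which are not independent replicates. KDM6B (ENSG00000132510) stood at 15.8 and 13.7 CPM in the vector libraries and at 37.9 and 44.1 CPM in the JMJD3 libraries. Both JMJD3 libraries were above both vector libraries, with a log2 fold change of 1.48 (SE 0.13; JMJD3 over vector, as for every fold change below) and an adjusted p of 0.00114 in edgeR's quasi-likelihood test.

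P2X receptors are channels that open when ATP binds and let sodium and calcium into the cell. P2Y receptors couple to G proteins: some act through phospholipase C and calcium, others lower cyclic AMP, and P2RY11, a receptor for ATP, is known for raising both calcium and cyclic AMP. In blood cells they are known for roles in platelet activation, in the movement of neutrophils and in the release of interleukin-1 by macrophages, and extracellular ATP acting through P2RY11 has been linked to the maturation of myeloid cells.

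The window at the start of P2RY11 and a window in the region where PPAN and the readthrough both begin are shown because P2RY11 and its readthrough differ in where they begin, and those of P2RX7 and P2RX4 because these genes are neighbours on chromosome 12 with unlike changes. The sequences are from RefSeq, build GRCh38.p14, which has a window for 7 of the 10 genes. The P2RX4 window is chr12:121209879-121210178, the P2RX7 window chr12:121132626-121132925, the P2RY11 window chr19:10111443-10111742, and the window filed under PPAN chr19:10106112-10106411, each on the + strand. Each runs 5′ to 3′ from 250 bases before the start to 50 bases after it, and capitals mark matches, on either strand, to any of 6 motifs.
PPAN: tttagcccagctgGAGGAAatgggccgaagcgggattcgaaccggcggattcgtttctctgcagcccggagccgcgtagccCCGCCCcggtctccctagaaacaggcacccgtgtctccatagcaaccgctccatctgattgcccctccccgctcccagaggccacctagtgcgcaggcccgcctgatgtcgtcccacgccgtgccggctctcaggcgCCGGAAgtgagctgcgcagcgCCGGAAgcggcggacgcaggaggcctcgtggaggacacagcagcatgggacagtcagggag
P2RY11: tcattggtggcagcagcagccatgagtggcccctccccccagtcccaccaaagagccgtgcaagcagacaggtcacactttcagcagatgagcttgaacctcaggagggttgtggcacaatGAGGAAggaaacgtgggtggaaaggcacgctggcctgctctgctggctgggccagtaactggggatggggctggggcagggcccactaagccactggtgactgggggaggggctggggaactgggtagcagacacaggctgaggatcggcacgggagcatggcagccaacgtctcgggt
P2RX7: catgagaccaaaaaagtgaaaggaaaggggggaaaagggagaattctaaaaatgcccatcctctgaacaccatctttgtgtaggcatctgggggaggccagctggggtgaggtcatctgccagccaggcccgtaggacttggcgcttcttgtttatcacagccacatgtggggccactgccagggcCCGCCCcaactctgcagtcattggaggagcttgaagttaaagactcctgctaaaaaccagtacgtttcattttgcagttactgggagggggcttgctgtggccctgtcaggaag
P2RX4: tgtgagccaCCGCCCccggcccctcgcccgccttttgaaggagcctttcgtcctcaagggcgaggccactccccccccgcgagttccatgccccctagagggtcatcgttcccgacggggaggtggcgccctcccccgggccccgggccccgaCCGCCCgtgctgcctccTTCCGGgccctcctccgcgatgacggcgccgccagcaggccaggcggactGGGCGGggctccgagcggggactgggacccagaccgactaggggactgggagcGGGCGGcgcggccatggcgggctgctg

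The motifs were a C/EBP form (TTGCNNAA, found in 10.5% of 35116 RefSeq windows of 300 bases), an ETS core (CCGGAA, 17.2%), a PU.1 form (GAGGAA, 27.9%), an E-box (CACGTG, 7.26%), an AP-1 form (TGANTCA, 7.71%) and a GC box (GGGCGG, 45.0%). The ETS and PU.1 letters share their last 4 bases but cannot match at the same place. The printed PPAN window had 2 ETS matches, 1 PU.1 match and 1 GC box. It was 67.3% G or C with 29 CpG dinucleotides, against medians of 58.7% and 14 over all windows. A further PPAN window, chr19:10105973-10106272, overlaps it and had 1 PU.1 match, 1 GC box, 59.3% G or C and 21 CpG. The annotations differ on which transcript begins where: by RefSeq positions the printed window lies at the start of the readthrough and the further window at that of PPAN, whereas in GENCODE 44 the readthrough begins 0.139 kilobases before PPAN. Neither window is therefore assigned to either transcript. The P2RY11 window, around a start 5470 bases after the PPAN start, had 1 PU.1 match, 62.7% G or C and 7 CpG. The P2RX7 window had 1 GC box, 53.3% G or C and 4 CpG. The P2RX4 window was richer, with 76.0% G or C, 33 CpG, 1 ETS match and 4 GC boxes. A match describes letters in these windows and nothing was measured there in these libraries.

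Of the 10 genes, 8 passed the filter on low counts, and the test across 15246 genes called 2 of them higher (P2RX1 and P2RX7) and 2 lower (P2RY11 and PPAN-P2RY11) at an adjusted p under 0.05. The same test called 21.6% of all tested genes higher and 19.1% lower. By FPKM, the order in the vector group was P2RY2 (72.4 and 67.7 in replicates 1 and 2), P2RY11 (38.4 and 48.3), P2RY8 (39.9 and 42.1), PPAN-P2RY11 (20.5 and 26.1), P2RX4 (15.0 and 18.7), P2RX1 (8.85 and 8.18), P2RY1 (0.518 and 0.315) and P2RX7 (0.318 and 0.240). The values of P2RY11 and P2RY8 overlapped there, as did those of P2RY1 and P2RX7, and the gap between PPAN-P2RY11 and P2RX4 was smaller than the spread between libraries. In the JMJD3 group the order was P2RY2 (52.7 and 63.1), P2RY8 (39.2 and 40.5), P2RX4 (18.6 and 18.9), P2RX1 (11.7 and 11.2), P2RY11 (7.91 and 9.31), PPAN-P2RY11 (8.92 and 7.98), P2RX7 (0.745 and 1.33) and P2RY1 (0.278 and 0.297). The values of P2RY11 and PPAN-P2RY11 overlapped in that group, and the gap between P2RX7 and P2RY1 was smaller than the spread of P2RX7. P2RY11 thus stood with P2RY8 in the vector group and below P2RX4 and P2RX1 in the JMJD3 group.

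**Figure D1:**
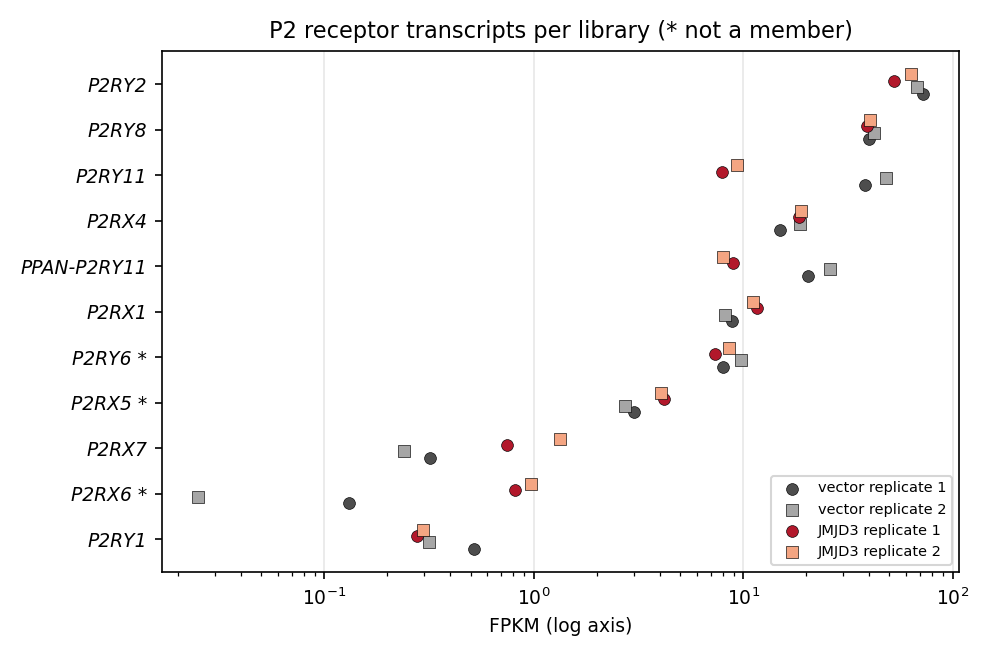
FPKM on a log axis for the 8 receptor genes that passed the filter and, with an asterisk, the 3 other P2 receptor genes that did, with a point for each vector and each JMJD3 library. P2RY11 lay at 38.4 and 48.3 FPKM in the vector libraries and at 7.91 and 9.31 in the JMJD3 libraries.

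P2RX1 (ENSG00000108405, chr17:3896592-3916465) encodes a fast-desensitizing ATP-gated channel of platelets and myeloid cells. It stood at 18.1 and 17.6 CPM in the vector libraries and at 26.4 and 25.3 CPM in the JMJD3 libraries. The pair of JMJD3 libraries lay above the vector pair and the log2 fold change was 0.54 (SE 0.10), and 0.51 to 0.57 when each library was left out in turn. P2RX1 was no longer called without JMJD3 replicate 1, without JMJD3 replicate 2, or with limma on log2 FPKM.

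P2RX7 (ENSG00000089041, chr12:121132876-121188032) encodes a channel that needs high ATP concentrations and is known for triggering potassium loss and inflammasome assembly. It stood at 1.32 and 1.15 CPM in the vector libraries and at 2.997 and 4.10 CPM in the JMJD3 libraries. Both JMJD3 libraries were above both vector libraries, and they also differed from each other more than the vector libraries did. These values rest on 43 and 42 fragments in the vector libraries and on 112 and 183 in the JMJD3 libraries. The log2 fold change was 1.52 (SE 0.23), and 1.28 to 1.73 when each library was left out in turn. On the scale of log2(FPKM + 1), where the FPKM of P2RX7 lies near or below the added 1, the difference was 0.66. In GENCODE 44, 33.0% of the exon bases of P2RX7 lie opposite another gene, ENSG00000286248, which the table does not list. The library kit named in the labels is not stated to keep strand, so reads of the pair cannot be told apart.

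P2RX4 (ENSG00000135124, chr12:121210129-121234106), which starts 22097 bases after the end of P2RX7, encodes an ATP-gated channel kept mostly in lysosomes of myeloid cells. It stood at 18.3 and 20.5 CPM in the vector libraries and at 21.2 and 21.1 CPM in the JMJD3 libraries. The gap between the groups was smaller than the gap between the vector libraries, and the log2 fold change was 0.12 (SE 0.11). Without vector replicate 1, which alone lay on lane 20, it was 0.00, and without vector replicate 2 it was 0.20.

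P2RY2 (ENSG00000175591, chr11:73218281-73242427) encodes a receptor for ATP and UTP that couples to phospholipase C. It had the highest FPKM of the 8 in every library, and stood at 147 and 133 CPM in the vector libraries and at 107 and 128 CPM in the JMJD3 libraries. The groups did not overlap, but the gap between them was smaller than the gap between libraries of a group, and the log2 fold change was -0.25 (SE 0.11). It was -0.13 without JMJD3 replicate 1 and -0.38 without JMJD3 replicate 2. It was called lower only in a fit that paired replicate numbers crosswise between the groups as a block, called the crossed block below, which was chosen after seeing the data. In GENCODE 44, 37.5% of its exon bases are shared with a gene on the same strand, ENSG00000260401.

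P2RY1 (ENSG00000169860, chr3:152835131-152841439) encodes an ADP receptor that couples to phospholipase C. It stood at 3.40 and 1.99 CPM in the vector libraries and at 1.84 and 1.94 CPM in the JMJD3 libraries. Vector replicate 1 stood apart, and the other 3 libraries were close together. The log2 fold change was -0.51 (SE 0.28), and -0.12 without vector replicate 1. It was not called with all libraries, and it was called lower without vector replicate 2.

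P2RY8 (ENSG00000182162, chrX:1462581-1537185, in the region shared by X and Y) encodes a receptor for S-geranylgeranyl-L-glutathione that couples to G13 proteins and is known in B cells. It stood at 157 and 161 CPM in the vector libraries and at 155 and 160.2 CPM in the JMJD3 libraries. The groups overlapped, and the log2 fold change of -0.01 (SE 0.08) was 0.02 with upper quartile scaling and 0.01 without JMJD3 replicate 1. It was -0.07 without vector replicate 1 and -0.05 with DESeq2 size factors.

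P2RY13 (chr3:151326312-151329549), an ADP receptor, and P2RY14 (chr3:151212117-151278542), a receptor for UDP sugars, lie near each other on chromosome 3 and did not pass the filter. P2RY13 had 0 and 2 fragments in vector replicates 1 and 2, and 1 and 3 in JMJD3 replicates 1 and 2. P2RY14 had 2 fragments in each vector library and 0 in each JMJD3 library. A count of 0 allows up to 3 fragments, which is 0.0804 CPM in JMJD3 replicate 1 and 0.0671 CPM in JMJD3 replicate 2. Such floors, and the counting intervals below, cover counting error only. No difference in either gene was detectable at this depth.

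P2RY11 (ENSG00000244165, chr19:10111693-10115372) shares its RefSeq end with PPAN-P2RY11 (ENSG00000243207, chr19:10106362-10115372). PPAN (ENSG00000130810, chr19:10106223-10112012), which encodes a nucleolar protein of ribosome assembly, ends 319 bases after P2RY11 begins. EIF3G (ENSG00000130811, chr19:10115014-10119899), which encodes a subunit of a translation initiation factor, lies on the opposite strand and overlaps the end of P2RY11 by 359 bases. In GENCODE 44, 53.6% of the 2140 exon bases of P2RY11 are also exon bases of PPAN-P2RY11, 5.4% lie opposite EIF3G exons, 2.2% are PPAN exon bases, and 828 bases are shared with none of them. For PPAN-P2RY11, 94.8% of 2661 exon bases belong to PPAN or P2RY11, and 139 bases are its own. Its count is therefore uncertain, since most reads that fit it also fit a neighbour.

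The counts of P2RY11, PPAN-P2RY11 and PPAN kept fractional parts when the scaling of each library was removed. Each library's counts were multiples of a common value, worth 1.14, 1.05, 0.993 and 0.829 counts per fragment in vector replicates 1 and 2 and JMJD3 replicates 1 and 2. After division by it, between 91.2% and 91.6% of nonzero counts were within 0.02 of a whole number. The other 8 receptor genes were whole in each library where they were above 0, and these 3 genes were whole in none of the 4 libraries. Estimated counts take such fractions where reads are divided between overlapping models, and the sum over the 3 genes depends less on that division than the single values do.

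P2RY11 stood at 48.0 and 58.7 CPM in the vector libraries and at 8.88 and 8.53 CPM in the JMJD3 libraries. Both vector libraries were several times above both JMJD3 libraries, and the JMJD3 libraries were close together. The log2 fold change was -2.61 (SE 0.14), and -2.80 without vector replicate 1, which leaves only libraries of lane 17. PPAN-P2RY11 stood at 44.1 and 54.5 CPM in the vector libraries and at 19.3 and 17.1 CPM in the JMJD3 libraries. The groups were again far apart, with a log2 fold change of -1.44 (SE 0.14) and of -1.63 without vector replicate 1. Whether fewer cells carried these RNAs or each cell carried less cannot be told from bulk RNA.

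PPAN stood at 229 and 259 CPM in the vector libraries and at 178 and 174 CPM in the JMJD3 libraries. The groups did not overlap, and the log2 fold change of -0.47 (SE 0.09) was the smallest in size of the 3 overlapping genes. EIF3G stood at 592 and 706 CPM in the vector libraries and at 464 and 426 CPM in the JMJD3 libraries. It fell by 0.55 on the log2 scale (SE 0.10; adjusted p 0.00799 in edgeR's quasi-likelihood test), and was lower in both JMJD3 libraries than in either vector library. Summed with the readthrough, P2RY11 had a log2 fold change of -1.93 (SE 0.13), and PPAN had -0.59 (SE 0.09). The sum of all 3 was 11905 and 14189 counts in the vector libraries and 7645 and 7377 in the JMJD3 libraries. Both vector sums exceeded both JMJD3 sums, and the log2 fold change was -0.77 (SE 0.09).

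Within that sum, P2RY11 held 15.0% and 15.8% in the vector libraries and 4.30% and 4.28% in the JMJD3 libraries. PPAN-P2RY11 held 13.7% and 14.7% in the vector libraries and 9.33% and 8.59% in the JMJD3 libraries. PPAN held 71.3% and 69.6% in the vector libraries and 86.4% and 87.1% in the JMJD3 libraries. In these estimated counts the locus therefore differed in composition as well as in total. The share of PPAN was higher and that of both P2RY11 transcripts lower in both JMJD3 libraries. These shares, and the ratios that follow, depend on how reads were divided between the overlapping models. For each 100 PPAN counts there were 21.0 and 22.7 P2RY11 counts in the vector libraries and 4.98 and 4.91 in the JMJD3 libraries. For each 100 readthrough counts there were 109 and 108 P2RY11 counts in the vector libraries and 46.1 and 49.8 in the JMJD3 libraries. The libraries of a group were close to each other in both ratios, and the groups were apart. Of the sequences printed above, the P2RY11 window belongs to the gene with the largest difference of the 3.

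**Figure D2:**
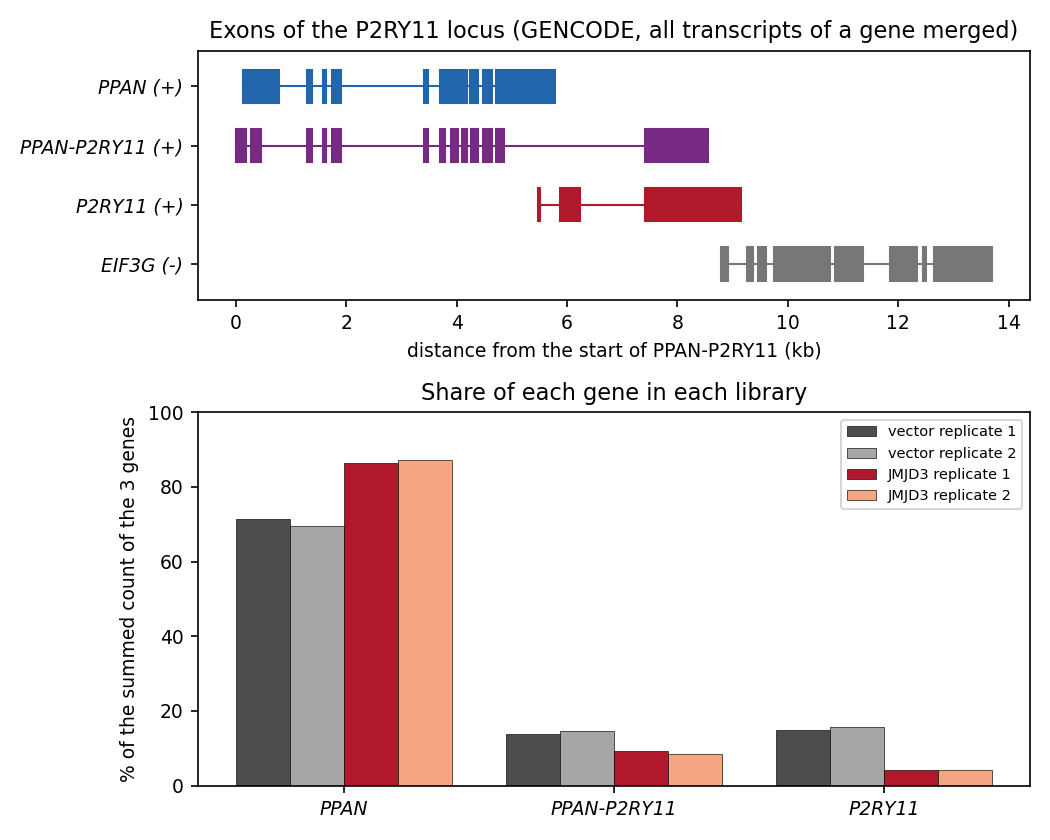
Exons of PPAN, PPAN-P2RY11, P2RY11 and EIF3G in GENCODE 44 by distance in kilobases from the readthrough start, and the percent of the summed counts of PPAN, PPAN-P2RY11 and P2RY11 that each held in each of the 4 libraries. P2RY11 held 15.0% and 15.8% in the vector libraries and 4.30% and 4.28% in the JMJD3 libraries.

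The 3 tested genes outside the 10 whose pattern was nearest to P2RY11 were SGPP2, CKMT1B and ZCCHC12. Nearness was the Euclidean distance over the log2 CPM of the 4 libraries, each gene centred on its own mean, and it was 0.093 for SGPP2, 0.226 for CKMT1B and 0.243 for ZCCHC12. SGPP2 stood at 5.53 and 6.47 CPM in the vector libraries and at 1.03 and 0.972 CPM in the JMJD3 libraries. CKMT1B stood at 3.10 and 3.59 CPM in the vector libraries and at 0.432 and 0.513 CPM in the JMJD3 libraries. ZCCHC12 stood at 0.432 and 0.655 CPM in the vector libraries and at 0.054 CPM in each JMJD3 library. Since these genes were chosen for nearness over the same libraries, their likeness to P2RY11 follows from the choice. In each, vector replicate 2 was above vector replicate 1, and the JMJD3 libraries were low and close together. The JMJD3 values of ZCCHC12 lie under the floors of 3 fragments given above for those libraries. ZCCHC12 passed the filter through the vector libraries, where it was high. CKMT1B has a nearly identical copy, CKMT1A, so its count is uncertain.

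**Figure D3:**
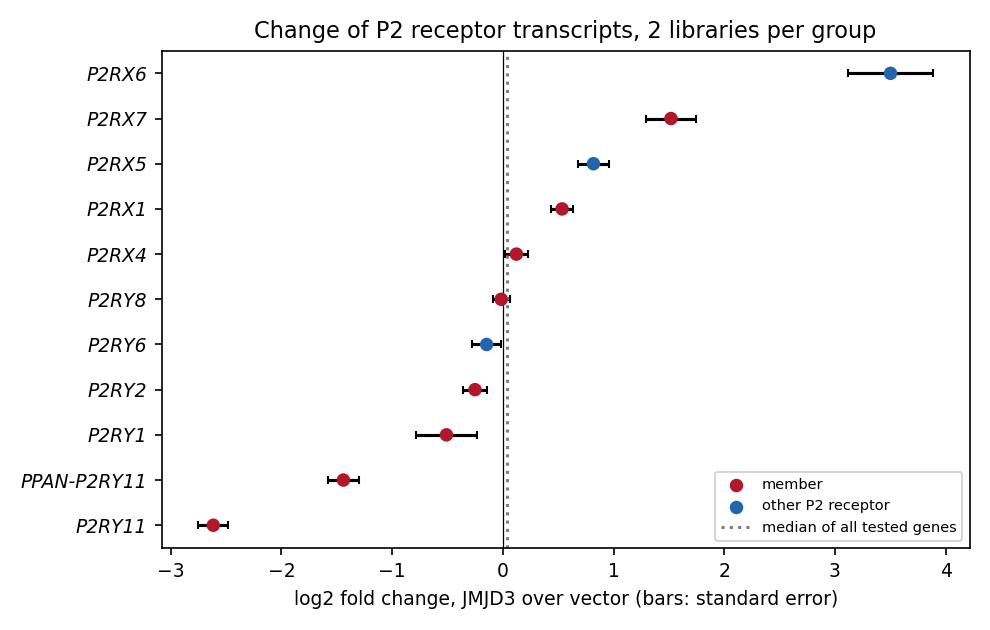
Log2 fold change of JMJD3 over vector, with bars of 1 SE, for the 8 chosen receptor genes that passed the filter (red) and the other P2 receptor genes that did (blue), with the median of all tested genes as a dotted line. P2RY11 lay at -2.61, PPAN-P2RY11 at -1.44 and P2RX7 at 1.52.

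Of the 8 other P2 receptor genes, 3 were tested and 2 of these rose, with a median log2 fold change of 0.82 against 0.04 over all tested genes. P2RX6, which is among those that rose, entered the test through the JMJD3 libraries, so nothing is read from this count or median. P2RX5 (ENSG00000083454), which encodes a further ATP-gated channel, stood at 3.88 and 3.43 CPM in the vector libraries and at 6.51 and 6.40 CPM in the JMJD3 libraries. It was higher in both JMJD3 libraries, with a log2 fold change of 0.82 (SE 0.14; adjusted p 0.00609 in edgeR's quasi-likelihood test). P2RX5 is uncertain, since 43.2% of its exon bases are shared with its own readthrough gene P2RX5-TAX1BP3, its counts were whole in none of the libraries, and limma on log2 FPKM did not call it. P2RX6 (ENSG00000099957), which encodes a subunit that works mainly together with other P2X subunits, had 5 and 3 fragments in the vector libraries and 50 and 64 in the JMJD3 libraries. It rose from a level close to the floor, with 114 fragments in the JMJD3 group against 8, a ratio of 11.97 (95% exact counting interval 5.87 to 28.4). P2RX6 passed the filter on low counts through the JMJD3 libraries, where it was high, so no p-value is given for it. It was not tested with at least 10 counts in every library. On the scale of log2(FPKM + 1) the difference was 0.81 for P2RX6. P2RY6, which encodes a UDP receptor, stood at 12.7 and 14.4 CPM in the vector libraries and at 11.3 and 13.2 CPM in the JMJD3 libraries. Its groups overlapped and it was not called (log2 fold change -0.15, and -0.28 to -0.04 when each library was left out in turn). P2RX7, P2RX6 and P2RX5 thus had low levels that were higher in both JMJD3 libraries, with at most 4.202 FPKM in any of these.

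Adenosine, the end product of ATP breakdown outside the cell, has receptors of its own. Of 4 such genes, 2 were tested and 1 was called, and the median was 1.88. Both tested genes passed the filter through the JMJD3 libraries, where they were higher, so nothing is read from this call or median. ADORA3 stood at 0.189 and 0.262 CPM in the vector libraries and at 1.40 and 1.32 CPM in the JMJD3 libraries. It rose by a log2 fold change of 2.58 on low counts, and 24.6% of its exon bases are shared with TMIGD3. ADORA3 passed the filter on low counts through the JMJD3 libraries, where it was high, so no p-value is given for it. It was not tested with at least 10 counts in every library. On the scale of log2(FPKM + 1) the difference was 0.76 for ADORA3. ADORA2B stood at 0.297 and 0.236 CPM in the vector libraries and at 0.486 and 0.729 CPM in the JMJD3 libraries. Its groups did not overlap, and its log2 fold change was 1.18. ADORA2B also passed the filter through the JMJD3 libraries, where it was higher, so no p-value is given for it. It was not tested with at least 10 counts in every library. In the main fit it was not called, which changed with upper quartile scaling, with the replicate number as a block and with the crossed block. ADORA2A was not tested, had between 0.0270 and 0.189 CPM, and shares 56.8% of its exon bases with SPECC1L-ADORA2A.

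Of 9 genes for the release of ATP, 8 were tested, 4 rose and 1 fell, with a median of 0.48. GJA1, which encodes the hemichannel protein connexin 43, stood at 6.91 and 5.16 CPM in the vector libraries and at 34.7 and 33.5 CPM in the JMJD3 libraries. The groups were far apart, with a log2 fold change of 2.50 (SE 0.15; adjusted p 0.000432 in edgeR's quasi-likelihood test). PANX1, which encodes a large-pore channel that releases ATP, rose from 8.36 and 6.81 CPM to 13.0 and 13.5 CPM, a log2 fold change of 0.81 with an adjusted p of 0.00585 in edgeR's quasi-likelihood test. LRRC8A, the required subunit of volume-regulated anion channels, had a log2 fold change of 0.63, and LRRC8D, a partner subunit that was not called, had 0.23. LRRC8A was no longer called without JMJD3 replicate 2, and LRRC8D was called higher without vector replicate 1 and with the crossed block. SLC17A9, which loads ATP into vesicles, fell by 0.28 on the log2 scale, and this call ended without either JMJD3 library, with upper quartile scaling, with no filter on low counts and with the replicate block.

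Ectonucleotidases degrade nucleotides at the cell surface. Of 10 such genes, 3 were tested, 1 rose and 1 fell, with a median of 0.11. ENTPD1 (CD39), which takes ATP and ADP to AMP, stood at 6.47 and 6.24 CPM in the vector libraries and at 7.26 and 6.45 CPM in the JMJD3 libraries. Its groups overlapped and it was not called, and 40.0% of its exon bases lie opposite ENTPD1-AS1. ENPP3, which hydrolyses extracellular nucleotides, had 1 fragment in each vector library and 20 and 13 in the JMJD3 libraries. The ratio of the groups was 13.9, with a 95% exact counting interval from 3.55 to 119. ENPP3 passed the filter on low counts through the JMJD3 libraries, where it was high, so no p-value is given for it. It was not tested with at least 10 counts in every library or without JMJD3 replicate 1. Limma on log2(FPKM + 1) did not call it. ACPP (ACP3), a phosphatase that can act on AMP, fell by 0.48 on the log2 scale. The call of ACPP ended without either JMJD3 library, with DESeq2's Wald test, with limma, with no filter and with the replicate block.

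Of 11 genes for the uptake and breakdown of adenosine, 8 were tested, 1 rose and 1 fell, with a median of -0.02. CECR1 (ADA2), a secreted adenosine deaminase, rose from 3.94 and 4.30 CPM to 9.29 and 9.72 CPM, a log2 fold change of 1.21 with an adjusted p of 0.00185 in edgeR's quasi-likelihood test. ADK, which turns adenosine into AMP inside the cell, fell by 0.35 on the log2 scale, and was not called without either JMJD3 library. PNP, a purine nucleoside phosphorylase, had a log2 fold change of -0.20, and the nucleoside carrier SLC29A1 had -0.03. PNP was called lower without vector replicate 1 and with the crossed block. The sign of SLC29A1 turned with upper quartile scaling and without vector replicate 2, and neither gene was called with all libraries.

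Of 29 genes for G proteins and their direct effectors, 19 were tested, 3 rose and 2 fell, with a median of 0.08. By FPKM the most abundant were GNAS (mean 780.4 over the libraries), GNAI2 (267) and GNA15. GNA15, a phospholipase C partner found in blood cells, was not called, with a log2 fold change of 0.08 that turned negative without vector replicate 1. GNAS, the stimulatory subunit that P2RY11 is thought to use for cyclic AMP, fell by 0.27 on the log2 scale. That call ended without either JMJD3 library, with upper quartile scaling, with limma and with the replicate block. GNAI2, an inhibitory subunit, had a log2 fold change of -0.03 that changed sign with upper quartile scaling and without JMJD3 replicate 2. ITPR3, a calcium release channel, rose from 9.06 and 8.75 CPM to 15.4 and 16.4 CPM, a log2 fold change of 0.84 with an adjusted p of 0.00276 in edgeR's quasi-likelihood test. ADCY9, an adenylyl cyclase, rose by 0.67 on the log2 scale, and limma on log2 FPKM did not call it.

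Of 12 genes for signalling by cyclic AMP, 11 were tested, 4 rose and 1 fell, with a median of 0.29. PDE4B, which degrades cyclic AMP, stood at 8.17 and 5.53 CPM in the vector libraries and at 17.4 and 18.2 CPM in the JMJD3 libraries. It was higher in both JMJD3 libraries, with a log2 fold change of 1.38 (adjusted p 0.00288 in edgeR's quasi-likelihood test). PRKAR2B, a regulatory subunit of protein kinase A, fell from 3.83 and 3.56 CPM to 1.43 and 1.35 CPM, a log2 fold change of -1.41 with an adjusted p of 0.00240 in edgeR's quasi-likelihood test, but limma on log2 FPKM did not call it. The abundant regulatory subunit PRKAR1A rose by 0.43 on the log2 scale, a call that ended without either JMJD3 library and with no filter. Its value was 0.25 without vector replicate 2 and 0.59 without vector replicate 1, and its counts were whole in no library. PRKAR1B had a log2 fold change of -0.30 and the catalytic subunit PRKACA of -0.02. Neither was called, PRKAR1B was called lower without vector replicate 1 and with the crossed block, and the sign of PRKACA turned with upper quartile scaling and without vector replicate 2 or JMJD3 replicate 1.

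All 6 genes for receptor desensitization were tested, 1 rose and 2 fell, with a median of -0.09. These kinases and arrestins switch off receptors coupled to G proteins after use. ADRBK2 (GRK3) fell from 7.85 and 7.44 CPM to 3.16 and 3.29 CPM, a log2 fold change of -1.24 with an adjusted p of 0.00188 in edgeR's quasi-likelihood test. GRK5 rose by 0.61 on the log2 scale, but not past the threshold without JMJD3 replicate 1 or with limma. ARRB2 fell by 0.25 on the log2 scale, and this call ended without either JMJD3 library, with upper quartile scaling, with no filter and with the replicate block. ADRBK1 (GRK2) had a log2 fold change of -0.19 and was called lower only without vector replicate 1, with limma on log2 FPKM and with the crossed block. GRK6 had 0.06, was not called, and changed sign without vector replicate 1 and with limma.

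The 8 genes for the inflammasome that P2RX7 is known to trigger were all tested, 3 rose and 1 fell, with a median of -0.09. TXNIP, a thioredoxin-binding protein, stood at 152 and 143 CPM in the vector libraries and at 331 and 335 CPM in the JMJD3 libraries. The groups were far apart, with a log2 fold change of 1.18 (SE 0.08; adjusted p 0.000532 in edgeR's quasi-likelihood test). NEK7, a kinase that binds the sensor NLRP3, stood at 15.97 and 8.62 CPM in the vector libraries and at 34.99 and 31.97 CPM in the JMJD3 libraries. The vector libraries were apart from each other but below both JMJD3 libraries, with a log2 fold change of 1.45 (SE 0.26; adjusted p 0.00692 in edgeR's quasi-likelihood test). NLRP3 rose by 0.50 on the log2 scale, and CASP1, the protease of the complex, fell by 0.44. Neither was called without either JMJD3 library, and CASP1 was not called with no filter. Limma on log2 FPKM did not call NLRP3, with values of 0.20 and 0.21 when 1 and 0.1 were added. PYCARD, the adaptor, had a log2 fold change of -0.16, which ran from -0.34 to -0.01 when each library was left out, and was called lower without vector replicate 1. The cytokine genes IL1B and IL18 had -0.36 and -0.61 on 72 to 84 and on 16 to 35 fragments per library, and were not called. Leaving out each library in turn moved IL1B between -0.54 and -0.19, and IL18 between -0.96 and -0.21. GSDMD, the pore protein, had -0.02, was not called, and changed sign with upper quartile scaling, with limma and without vector replicate 2. In GENCODE 44, most exon bases of NLRP3 are shared with a gene that the table does not list, and 59.7% of those of PYCARD lie opposite PYCARD-AS1.

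The ligand of P2RY8 is exported by ABCC1 and degraded by GGT5, both of which were tested, with a median of 0.74. GGT5 stood at 4.72 and 5.66 CPM in the vector libraries and at 14.04 and 12.5 CPM in the JMJD3 libraries. It rose in both, with a log2 fold change of 1.35 (SE 0.14; adjusted p 0.00174 in edgeR's quasi-likelihood test). ABCC1 overlapped between the groups, with a log2 fold change of 0.12, and was not called.

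**Figure D4:**
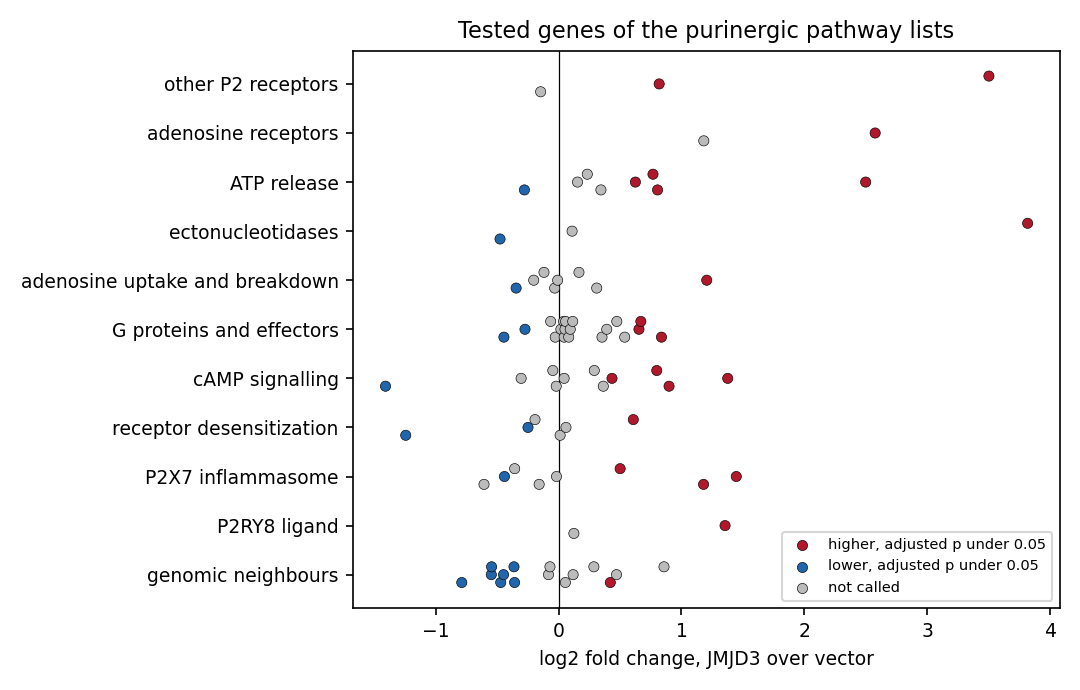
Log2 fold change of JMJD3 over vector for each tested gene of the pathway lists and of the genomic neighbours, red where it was called higher, blue where it was called lower and grey where it was not called. P2RX6 lay at 3.50, GJA1 at 2.50 and PRKAR2B at -1.41. P2RX6, ADORA3, ADORA2B and ENPP3 passed the filter through the JMJD3 libraries, where they were higher.

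Over these lists, without the genomic neighbours, 70 of 99 genes were tested, 21 rose and 9 fell, with a median log2 fold change of 0.11 against 0.04 over all tested genes. These were 30% and 12.9% of those tested, against 21.6% and 19.1% of all tested genes. The genes that rose include P2RX6, ADORA3 and ENPP3, which passed the filter through the JMJD3 libraries, where they were high. With at least 10 counts in every library, 18 genes of the lists were called higher and 9 lower. In that setting, 3076 and 2730 of 13969 tested genes were. Of 20 genes that lie near a receptor gene, 15 were tested, 1 rose and 7 fell, with a median of -0.08. These were 6.67% and 46.7% of those tested, against the same 21.6% and 19.1%, and several of them are neighbours of each other. Among those that fell, PPAN shares 47.6% of its exon bases with PPAN-P2RY11, and 3.3% of those of EIF3G lie opposite P2RY11. Their counts are therefore not fully separate from those of the receptor genes. Beside EIF3G and PPAN, the neighbours that fell included DNMT1, further along chromosome 19, which fell by 0.45 on the log2 scale. They also included ITGAE, which overlaps the span of P2RX5 and lies near P2RX1, and which fell by 0.79. P2RX5 itself rose by 0.82. CAMKK1, also near P2RX1, fell by 0.55 on the log2 scale, and SLC25A6, in the region of P2RY8, fell by 0.36. The calls of CAMKK1 and SLC25A6 ended without either JMJD3 library and with limma on log2 FPKM, and that of SLC25A6 also with no filter. The call of PPAN ended without JMJD3 replicate 2.

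NB4 is a promyelocytic line, and 5 of 7 promyelocyte markers were above 1 CPM in each library. Summed, the markers stood at 16577 and 17373 CPM in the vector libraries and at 10474 and 10436 CPM in the JMJD3 libraries. Their most abundant gene, MPO, stood at 13876 and 14110 CPM in the vector libraries and at 9379 and 9421 CPM in the JMJD3 libraries. MPO had a log2 fold change of -0.57, AZU1 of -0.56, PRTN3 of -1.81, CTSG of -3.91 and CD33 of 0.29, all of them called. KIT and ELANE had low levels and were not tested. ELANE had 11 and 7 fragments in the vector libraries and 1 and 2 in the JMJD3 libraries, and KIT overlapped between the groups. CTSG stood at 145 and 164 CPM in the vector libraries and at 10.96 and 9.61 CPM in the JMJD3 libraries, so that its difference was larger than that of P2RY11, while MPO made up most of the sums. Of the 5 monocyte and macrophage markers only CSF1R rose, from 4.94 and 3.85 CPM to 12.9 CPM in each JMJD3 library, and made up most of sums of 5.29, 4.11, 13.3 and 13.1 CPM in vector replicates 1 and 2 and JMJD3 replicates 1 and 2. CD14 lay between 0.210 and 0.351 CPM, MRC1 and MARCO had at most 2 fragments, and FCGR3A was at 0.

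The 5 T cell markers summed to 173, 191, 184 and 184 CPM in the same order, nearly all of it CD4, and CD3D, CD3E, CD3G and CD8A had at most 0.262 CPM each. The 5 B cell markers summed to 25.9, 30.8, 36.6 and 32.8 CPM, with CD79B the most abundant, CD79A higher in both JMJD3 libraries and MS4A1 at 0. All 5 erythroid markers were at 0 in each library. The 5 megakaryocyte and platelet markers summed to 2.54, 1.91, 3.43 and 3.51 CPM, with PF4 and GP9 at 0. GP1BA was the most abundant of them in the vector libraries, and ITGA2B, which was higher in both JMJD3 libraries, stood above or below GP1BA there depending on the library and on whether CPM or FPKM was used. MPO, AZU1, PRTN3, CTSG and, on few fragments and untested, ELANE thus moved with the groups in the direction of P2RY11. CSF1R (log2 fold change 1.56), ITGA2B (1.43), CD79A (0.83) and CD33 moved in the direction of P2RX1 and P2RX7. The part of these markers in the receptor results was not tested.

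**Figure D5:**
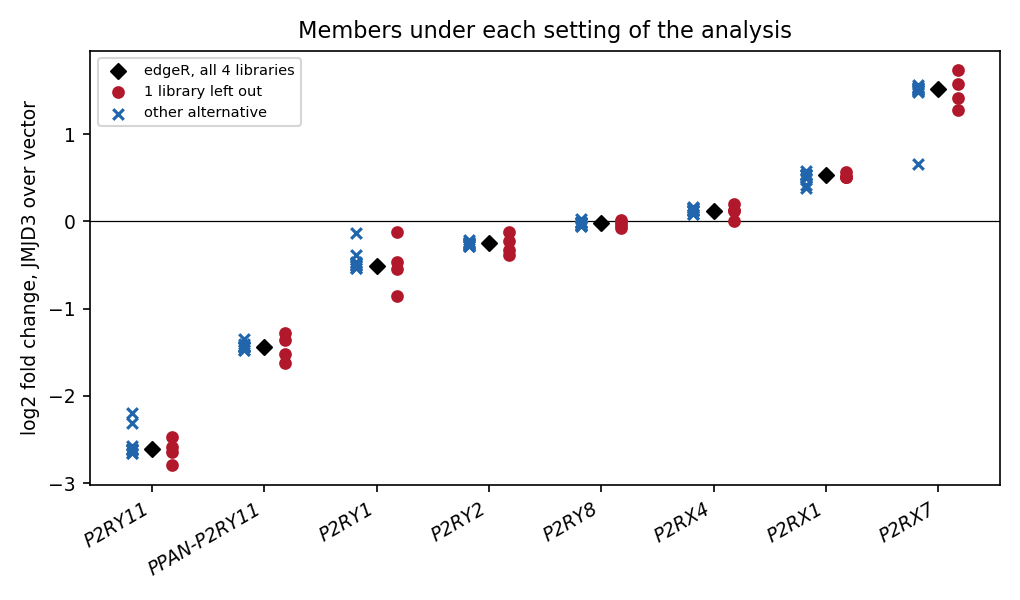
Log2 fold change of JMJD3 over vector for the receptor genes that passed the filter with all 4 libraries (diamonds), with 1 library left out (circles) and under the other alternatives (crosses), without the sums over the locus. P2RY11 lay between -2.80 and -2.20, and P2RX7 between 0.66 and 1.73.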

How the data were processed

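RNA of 4 NB4 libraries was sequenced on an Illumina HiSeq instrument. The deposited estimated count of each gene was used for CPM and tests, and the deposited FPKM for levels, both made by the authors. The submitters' notes name CASAVA 1.8, TopHat2 2.0.4, RSEM, edgeR and GRCh38, the series' design text names other aligners, and the study's methods name STAR, hg19, HTSeq-count and DESeq2, so which of these made the table is not certain. Each library's deposited counts and FPKM carry a factor of their own. The authors' group means and comparison columns were not used here.

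Counts were rounded, filtered by filterByExpr, scaled by TMM and tested across all genes with edgeR's quasi-likelihood test (edgeR 4.0.16, R 4.3.3), with Benjamini-Hochberg adjustment and a threshold of 0.05. The SE is the absolute log2 fold change over the square root of F. The code was tested on simulated data. The log2 CPM for nearness used a prior count of 2. Alternatives were DESeq2 1.42.0 size factors and Wald test, upper quartile scaling, no filter, limma 3.58.1 on log2 FPKM with 1 or 0.1 added, at least 10 counts in every library, a 2-fold minimum, the replicate number as a block, sums over the locus, and leaving out each library. Division by the library factor and a crossed block were chosen after seeing the data, as were the motifs.

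The members and lists were chosen with earlier results of these data known. Genes named were every member, KDM6B, PPAN, EIF3G, in each list the 3 with the highest mean FPKM and the 2 called genes with the largest change, every tested gene of the P2 and adenosine receptor, ectonucleotidase and inflammasome lists, and the 3 nearest to P2RY11, which also had the largest change of the tested members. Positions are RefSeq on GRCh38.p14, and exon overlaps are from GENCODE 44 mapped to GRCh37.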

Additional observations from a re-analysis of the deposited data

How the results depend on the processing

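Limma changed the values, their scaling and the test together, and DESeq2's Wald test changed the scaling and the test. The other settings each changed a single choice, and some of these changed which genes were tested. With all libraries and the filter, 15246 genes were tested, against 27095 with no filter and 15744 to 15846 with 1 library left out, so the counts below are not all of the same genes. In all, 2046 were called higher with limma on log2(FPKM + 1), 2032 on log2(FPKM + 0.1) and 1893 with no filter on low counts, and 1776 were called lower with no filter. Leaving out each library in turn gave 1890 to 4248 higher and 1110 to 4212 lower, where the lone library of a group is assumed to vary like the other group. Members called higher were 1 with limma at either added value, 1 with a 2-fold minimum, and 1 to 2 when each library was left out, P2RX1 being the gene lost. Pathway genes called lower were 5 with no filter, 5 with the replicate number as a block, and 2 to 14 when each library was left out, the 14 without vector replicate 1 and the 2 without either JMJD3 library. The log2 fold change of the locus sum ran from -0.92, without vector replicate 1, to -0.67. The cause was not tested for any of these.

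Signs turned for genes that were not called. With upper quartile scaling SLC29A1 was 0.0054, GNAI2 0.010, PRKACA 0.018 and GSDMD 0.020. With limma at the added values 1 and 0.1, GRK6 was -0.020 and -0.020, and GSDMD 0.025 and 0.027. Leaving out each library gave ranges of -0.12 to 0.0063 for SLC29A1, -0.045 to 0.17 for GNA15, -0.097 to 0.0067 for GNAI2, -0.089 to 0.0053 for PRKACA, -0.087 to 0.17 for GRK6 and -0.15 to 0.070 for GSDMD. P2RY8, given with no test, was 0.02 with upper quartile scaling, 0.01 without JMJD3 replicate 1 and -0.07 without vector replicate 1. Leaving out each library also moved values of genes not called: ENTPD1 ran from 0.02 to 0.20, ABCC1 from 0.04 to 0.19, LRRC8D from 0.13 to 0.30, PRKAR1B from -0.45 to -0.20 and ADRBK1 from -0.30 to -0.13. Limma at the same added values gave ENTPD1 0.34 and 0.50, LRRC8D 0.41 and 0.42, ABCC1 0.19 and 0.20, and ADRBK1 -0.34 at both. For genes called in the main fit, it gave P2RX5 0.40 and 0.51, ADCY9 0.31 and 0.40, PRKAR2B -0.41 and -0.87, and ACPP -0.23 and -0.30. On log2(FPKM + 1), differences of genes with FPKM near or under the added 1 are smaller by construction. The cause was not tested.

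With the replicate number as a block, 3267 genes were higher and 2415 lower, and KDM6B was 1.47. Deviations of replicates of the same number correlated at -0.252 across genes, and a crossed block, chosen after seeing the data, gave 4335 higher and 3772 lower. With the library factor divided out, 3304 were higher and 2915 lower, and P2RY11 was -2.62. KDM6B lay between 1.19 and 1.58 in all settings. Among values of tested single genes, 56 lost the call, 14 gained one and 15 changed sign, and the others kept their direction and side of the threshold. Of values given with no test, 98 moved by less than the spread between replicates and 16 by more. P2RY13 and P2RY14 are limited by depth in every library.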
